A study of Homo sapiens with 6 samples.

Results

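The genes described here encode lysosomal enzymes and membrane proteins: proteases, glycosidases, sulfatases, lipid-degrading enzymes, acid phosphatases, membrane glycoproteins, subunits of the proton pump, the transcription factor TFEB and the lysosomal protein progranulin. Members were all array probes whose annotated gene is on a list of 45 lysosomal genes. Of these, 44 genes had 60 probes, out of 19090 named genes and 28264 probes on the array, and ACP5 had no probe among those named. Where a gene had several probes, the brightest one stands for it. The list was drawn up with earlier results of the same contrast known, so the differences between the labels are given as a description and support no claim about the list.

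The samples were 6 single-colour Cy3 arrays of cells labelled Hep3B, an established human line derived from a hepatocellular carcinoma, grown in DMEM with serum. By their labels, 3 arrays hold RNA of cells transfected with a vector, called GFP in the sample titles, and 3 hold RNA of cells transfected with CCN5, a secreted matricellular protein also called WISP2. The labels do not say whether transfection was transient, whether clones were picked, or whether the replicates were separate cultures, so errors between arrays may be technical. No untransfected cells were measured, and lower and higher below are relative to the vector label. In bulk RNA, fewer cells of a type and less RNA per cell cannot be told apart.

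Some array signals differed from what the labels alone would lead a reader to look for. The CCN5 probe read 835, 836 and 880 on the arrays labelled vector and 673, 672 and 619 on those labelled CCN5. The intensity was therefore lower, not higher, on every array labelled CCN5, and each direction below rests on the labels alone. The log2 difference of this probe was -0.34 (SE 0.09), with limma's adjusted p at 0.151. Where the probe lies was not given, so whether it reads the transfected sequence is not known. Of 13 measured hepatocyte and hepatoma markers, all 13 lay below the 50th percentile of probe signal, among them ALB at percentile 12.2, GPC3 at 16.3 and AFP at 26.7. Of 5 measured markers of squamous epithelium, among them KRT5 and LAMB3, all lay at percentile 83.4 or above. The name of the cell line therefore also rests on the labels alone, and the identity of the cells was not tested.

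Lysosomes are acidic compartments in which proteins, glycans and lipids are taken apart. A V-type ATPase pumps protons into the lumen, heavily glycosylated proteins such as LAMP1 and LAMP2 line the membrane, and most lumenal enzymes reach the organelle by a mannose 6-phosphate tag. TFEB and its relatives switch on many of these genes together through a DNA element built around CACGTG, and mTORC1 on the lysosomal surface holds TFEB in the cytoplasm when nutrients are plentiful. Hepatocytes depend on lysosomes for the turnover of glycogen, of lipoprotein cholesterol and of their own organelles.

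Promoters of the listed genes carried this element as follows. RefSeq windows of 300 bases (250 before and 50 after a transcript start, GRCh38.p14) were available for 32 of the 45 genes, as 50 windows. CACGTG, which reads the same on both strands, was found in 11 of these 50 windows (22.0%) and in 7.26% of all 35116 human windows. The longer TCACGTGA, which contains CACGTG and also reads the same on both strands, was found in 7 member windows (14.0%) and in 0.98% of all windows. Among members with a probe and a window, 9 carried CACGTG and 22 did not. Of the 9 carriers 6 were lower with the CCN5 label, with a median log2 difference of -0.22, and of the 22 others 18 were lower, with a median of -0.11. Split by TCACGTGA the order of the medians was reversed. Of 6 carriers 3 were lower, with a median of -0.03, and of 25 others 21 were lower, with a median of -0.12. A match describes letters in a window and shows no binding.

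The stretches that hold the element in the 9 measured carriers are shown because they include genes whose differences had opposite signs, from GAA, the lowest member, to CLN3. Each is written 5′ to 3′ on the gene's own strand and lies upstream of the transcript start, with CACGTG in capitals.
GAA (chr17:80101481-80101580, plus strand): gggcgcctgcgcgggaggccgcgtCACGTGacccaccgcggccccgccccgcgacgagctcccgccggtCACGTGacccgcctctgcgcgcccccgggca
CTSA (chr20:45891235-45891334, plus strand): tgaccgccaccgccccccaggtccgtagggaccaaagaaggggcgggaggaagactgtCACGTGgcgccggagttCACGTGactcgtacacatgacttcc
CTSD (chr11:1763928-1764027, minus strand): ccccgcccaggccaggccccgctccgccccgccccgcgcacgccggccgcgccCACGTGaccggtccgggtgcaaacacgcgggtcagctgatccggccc
NEU1 (chr6:31862922-31863021, minus strand): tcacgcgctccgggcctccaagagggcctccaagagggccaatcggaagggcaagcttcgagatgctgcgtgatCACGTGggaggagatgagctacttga
CD63 (chr12:55729110-55729209, minus strand): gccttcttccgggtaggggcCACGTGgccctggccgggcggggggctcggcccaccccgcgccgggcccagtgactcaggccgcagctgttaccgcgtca
ATP6V0D1 (chr16:67481158-67481257, minus strand): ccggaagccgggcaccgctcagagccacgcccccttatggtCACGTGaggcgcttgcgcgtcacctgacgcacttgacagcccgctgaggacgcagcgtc
LAMP1 (chr13:113297039-113297238, plus strand): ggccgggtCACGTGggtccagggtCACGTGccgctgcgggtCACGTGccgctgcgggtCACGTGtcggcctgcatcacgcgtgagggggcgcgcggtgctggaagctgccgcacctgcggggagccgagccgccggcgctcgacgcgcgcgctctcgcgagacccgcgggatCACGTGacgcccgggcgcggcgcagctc
MCOLN1 (chr19:7522524-7522623, plus strand): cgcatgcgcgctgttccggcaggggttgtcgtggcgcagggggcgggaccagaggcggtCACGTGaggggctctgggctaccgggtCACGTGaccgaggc
CLN3 (chr16:28492075-28492174, minus strand): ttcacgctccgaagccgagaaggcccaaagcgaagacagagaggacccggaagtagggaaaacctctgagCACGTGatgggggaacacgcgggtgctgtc
GAA carried CACGTG at 76 and 31 bases before the start, both times as GTCACGTGAC, and LAMP1 carried 5 copies in the stretch shown. On the log2 scale GAA stood at -0.54 (SE 0.14) and LAMP1 at 0.15 (SE 0.11), the latter with overlapping groups after normalization. Neither passed limma's adjusted threshold.

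Compared between the labels, most lysosomal genes read lower with the CCN5 label, by small amounts. Of 44 measured members 32 were lower and 12 higher, which is 72.7% lower against 51.9% of all 19090 genes, of which 48.1% were higher. The median log2 difference was -0.12 over the members and -0.01 over all genes, and members ranged from -0.54 (GAA) to 0.33 (ATP6V1B2). For 13 members (29.5%) the groups did not overlap on the normalized scale and the CCN5 group was the lower, a layout that 16.0% of all genes showed, and for 4 it was the higher (9.09%, against 12.0% of all genes). On the deposited scale 13 members were lower without overlap (12.8% of all genes) and 3 higher (10.8%). No member passed limma's test over all probes (0 of 44 at an adjusted p under 0.05, background 0.0% of genes), and the lowest adjusted p was 0.106, for NPC2. At an unadjusted p under 0.05, 11 members were lower and 1 higher, where 11.2% and 8.58% of all genes were. Since the same contrast was in view when the list was made, nothing is read from these shares.

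Enzymes and carriers of the lumen made up 30 of the 44 measured members, and 24 of these 30 were lower, with a median of -0.17. The 7 membrane proteins had a median of -0.02 and the 5 proton pump genes one of 0.11. That pump median counts ATP6V1A, whose only probe lay at percentile 0.163 of signal and gave no usable level. The other listed pump genes stood at -0.15, -0.09, 0.11 and 0.33, on both sides of 0. Lysosomal genes outside the list had medians of -0.10 for membrane proteins and transporters and -0.08 for the pump. The difference between these role groups was not tested.

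**Figure D1:**
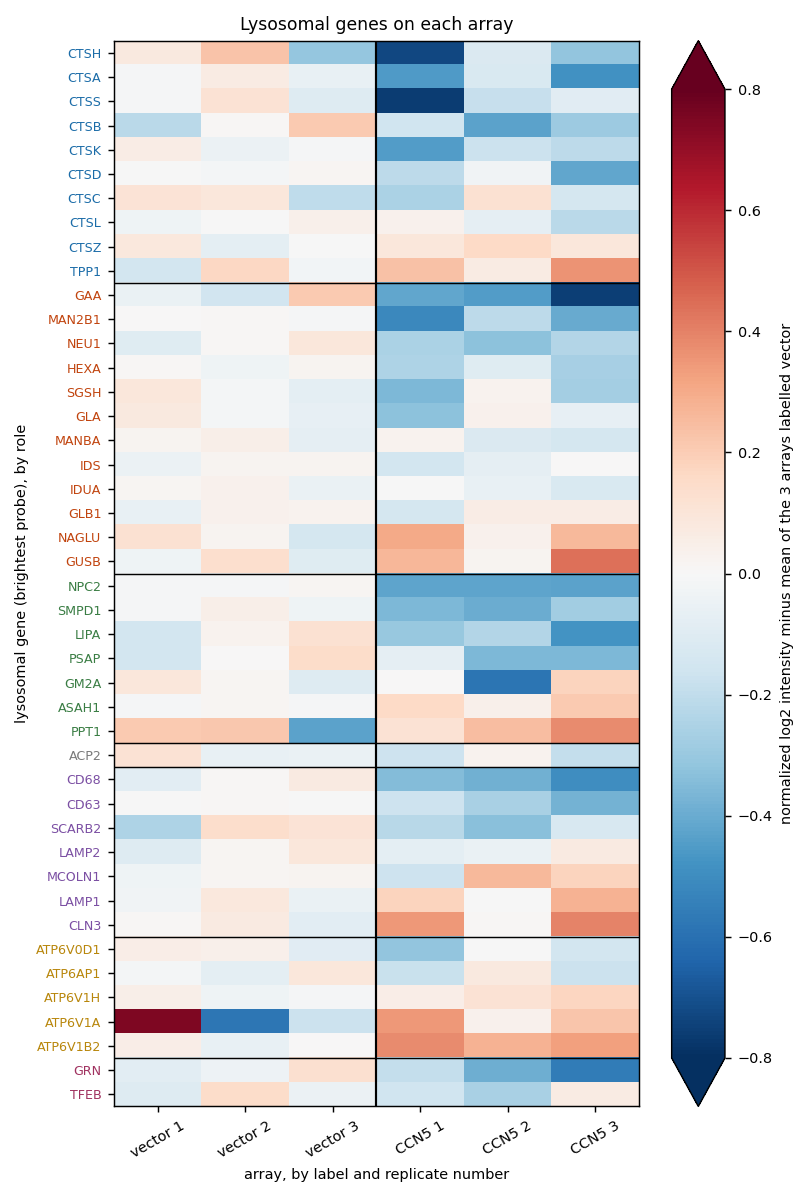
Normalized log2 intensity of 44 lysosomal genes on each of the 6 arrays, minus the mean of the 3 arrays labelled vector, with genes grouped by role (label colour and black lines). Blue is lower and red higher than the vector mean. NPC2 is evenly blue over the 3 arrays labelled CCN5 and ATP6V1B2 evenly red, while ATP6V1A varies most within the vector label. The ATP6V1A probe is near the floor of signal. Its vector values of -11.96, 22.4 and 10.2 as deposited became 3.86, 2.54 and 2.95 after normalization, in reverse order, so its colours show no usable level.

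On single arrays, the median member lay -0.17, -0.07 and -0.14 from the vector mean on CCN5 replicates 1, 2 and 3, and -0.0085, 0.01 and -0.0087 from it on vector replicates 1, 2 and 3. Over all genes the arrays labelled CCN5 had medians of -0.01, -0.0013 and -0.03. CCN5 replicate 2 was the array of its label nearest to the vector mean for 23 of 44 members. Without it the median over the members was -0.17.

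For 26 of 44 members leaving out 1 array moved the difference by more than 1.5 times. The 18 that moved less were CTSA, CTSK, TPP1, GAA, MAN2B1, NEU1, HEXA, NPC2, SMPD1, LIPA, PSAP, ASAH1, CD68, CD63, CLN3, ATP6V1B2, ATP6V1H and GRN. Among the others, CTSS changed to -0.14, CTSH to -0.22 and GLA to -0.01 without CCN5 replicate 1, CTSD to -0.12 and CTSL to -0.02 without CCN5 replicate 3, CTSB to -0.19 without vector replicate 3, and TFEB to -0.05 without vector replicate 2 or CCN5 replicate 2.

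Among the proteases 8 of 10 were lower, with a median of -0.25. CTSA is a serine carboxypeptidase that also shields NEU1 and beta-galactosidase from breakdown. It read 12795, 12843 and 12023 on the arrays labelled vector and 9268, 11903 and 9152 on those labelled CCN5. CCN5 replicate 2 came close to the vector arrays without reaching them, and the log2 difference was -0.35 (SE 0.12). CTSB, an abundant cysteine protease, read 7702, 8788 and 10163 with the vector label and 7951, 6727 and 7231 with the CCN5 label. Its groups overlapped by CCN5 replicate 1, at -0.29 (SE 0.14). Of 2 further CTSB probes, one gave -0.21 and the other -0.67 (SE 0.13), the largest difference among all member probes, with means of 5288 and 3328 that did not overlap. The aspartic protease CTSD averaged 18048 ± 444 (SD, n = 3) and 15943 ± 2287 (SD, n = 3), at -0.22 (SE 0.12), and its deposited intensities overlapped through CCN5 replicate 2.

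The dim cathepsins were lower as well, but near the bottom of the signal range. CTSK, the collagen-degrading protease of osteoclasts, read 103, 139 and 138 with the vector label and 106, 102 and 104 with the CCN5 label. As deposited these groups overlap through vector replicate 1, and they separate only after normalization, at -0.27 (SE 0.10). CTSH, an aminopeptidase, read 145, 208 and 147 against 116, 138 and 125, at -0.38 (SE 0.21), and CTSS, an endopeptidase of antigen-presenting cells, stood at -0.35 (SE 0.19). These 3 probes lay at percentiles 24.0 to 30.8 of signal, and no detection threshold for this array was at hand. CTSL, with averages of 28055 and 27084, differed by -0.09 (SE 0.10), and CTSC, which activates granule proteases, by -0.09 (SE 0.14). The carboxypeptidase CTSZ stood at 0.11 (SE 0.09) and the tripeptidyl peptidase TPP1 at 0.22 (SE 0.12).

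Of the 12 glycosidases and sulfatases 10 were lower, with a median of -0.10. GAA, which breaks down lysosomal glycogen, read 5852, 5372 and 6981 with the vector label and 4533, 4487 and 3507 with the CCN5 label. The groups did not overlap, and GAA had the largest difference of any member by its brightest probe, at -0.54 (SE 0.14), or 1.45-fold more signal with the vector. MAN2B1, an alpha-mannosidase, read 3242, 3246 and 3258 on the vector arrays, a spread of 8.12 (SD, n = 3), and 2325, 2800 and 2379 on the others. All CCN5 arrays lay below that narrow band, at -0.38 (SE 0.10). NEU1, the sialidase that works in a complex with CTSA, read 12589, 12888 and 13882 against 10930, 10733 and 11375, at -0.27 (SE 0.09), again without overlap. HEXA, the alpha chain of beta-hexosaminidase, read 12060, 11281 and 11804 against 9843, 11179 and 9825. CCN5 replicate 2 lay just below the lowest vector array, and the log2 difference was -0.20 (SE 0.09).

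The heparan sulfatase SGSH read 835, 820 and 800 with the vector label and 684, 794 and 621 with the CCN5 label. Its groups were apart as deposited, narrowly so for CCN5 replicate 2, and overlapped after normalization, at -0.20 (SE 0.13). Of the other glycan-degrading enzymes the alpha-galactosidase GLA stood at -0.12 (SE 0.12), the beta-mannosidase MANBA at -0.08 (SE 0.09), the iduronate sulfatase IDS at -0.07 (SE 0.09), the iduronidase IDUA at -0.06 (SE 0.08) and the beta-galactosidase GLB1 at -0.0071 (SE 0.10). NAGLU, which like SGSH acts on heparan sulfate, was at 0.20 (SE 0.12), and the beta-glucuronidase GUSB at 0.24 (SE 0.13). All 8 overlapped between the labels on the normalized scale.

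Among the 7 lipid-handling genes 5 were lower, with a median of -0.26. NPC2, a lumenal protein that binds cholesterol and passes it to the exporter NPC1, read 37699, 35961 and 36921 with the vector label and 27219, 28957 and 28593 with the CCN5 label. The means were 36860 ± 870 and 28256 ± 917 (SD, n = 3 each), and the gap between the groups was several times the spread within either. The log2 difference was -0.42 (SE 0.08), while a second, dimmer NPC2 probe gave -0.11 (SE 0.12) with overlapping groups. SMPD1, the acid sphingomyelinase, read 2947, 3074 and 2931 against 2380, 2257 and 2390, at -0.34 (SE 0.08) without overlap, yet its second probe gave 0.0001 (SE 0.11). LIPA, the acid lipase that frees cholesterol from lipoprotein esters, read 14207, 15447 and 16627 against 12443, 13655 and 11309, at -0.34 (SE 0.11), and its groups did not overlap.

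PSAP, the precursor of the saposins that assist sphingolipid breakdown, read 102687, 106944 and 121015 with the vector label and 104861, 87452 and 91086 with the CCN5 label. CCN5 replicate 1 fell inside the vector range, and the difference was -0.26 (SE 0.13). GM2A, the activator that presents GM2 ganglioside to hexosaminidase, was at -0.13 (SE 0.20), with CCN5 replicate 2 at 633 and the other CCN5 arrays at 1050 and 1051, and stood at 0.090 without that array. The acid ceramidase ASAH1 was higher on all 3 arrays labelled CCN5 (0.14, SE 0.09). PPT1, a palmitoyl-protein thioesterase, stood at 0.25 (SE 0.19), with vector replicate 3 at 4909 and the other vector arrays at 7692 and 7546, and at 0.03 without vector replicate 3. The acid phosphatase ACP2 differed by -0.11 (SE 0.10), and by -0.05 without vector replicate 1.

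The membrane proteins divided by direction, with 4 lower and 3 higher. CD68, a glycoprotein abundant in macrophage lysosomes, read 4201, 4444 and 4664 with the vector label and 3504, 3412 and 3064 with the CCN5 label, at -0.41 (SE 0.09). The tetraspanin CD63 read 84553, 78621 and 77780 against 73860, 70491 and 65989, at -0.27 (SE 0.09). Neither gene's groups overlapped. SCARB2, the receptor that carries glucocerebrosidase to lysosomes, read 10334, 12806 and 12748 against 10173, 9710 and 11078, at -0.23 (SE 0.13) with overlap through vector replicate 1.

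The main structural glycoproteins lay closer to 0 or above it. LAMP1 averaged 53773 ± 2164 with the vector label and 62285 ± 6542 with the CCN5 label (SD, n = 3 each), at 0.15 (SE 0.11), and LAMP2 stood at -0.02 (SE 0.10). The calcium channel MCOLN1 was at 0.09 (SE 0.13). CLN3, the membrane protein defective in Batten disease, read 5290, 5437 and 4952 against 6585, 5323 and 6865, at 0.25 (SE 0.13). CCN5 replicate 2 lay within the vector range for CLN3, while the other CCN5 arrays lay above it.

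Markers of macrophages and osteoclasts, cells in which CD68, CTSS and CTSK are prominent, gave these values beside them. Of 15 measured markers 9 were lower with the CCN5 label and 12 lay below the 50th percentile of signal, MRC1, MARCO and OSCAR among them. AIF1, C1QC and CD14 lay above it. The CCN5 group lay wholly below the vector group for 6 markers (40.0%, against 16.0% of all genes). It lay wholly above for 1 (6.67%, against 12.0%). As deposited these counts were 4 and 1 (12.8% and 10.8% of all genes). The summed intensity of the 15 markers was 8125 to 8882 on the arrays labelled vector and 6630 to 8603 on those labelled CCN5, so the ranges overlapped. The lowest differences were those of CSF1R (-0.53) and OSCAR (-0.52), and the highest those of C1QB (1.18) and FCER1G (0.73), which lay at percentiles 15.2 and 12.9 of signal; a second C1QB probe read 28.9 to 66.2 with the vector label and 42.8 to 61.6 with the CCN5 label. The part of such cells in the values of CD68 was not tested, and no intensity here can be called 0.

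Of the 5 proton pump genes 3 were higher and 2 lower, with ATP6V1A, whose probe was near the floor of signal, counted as higher. ATP6V1B2, a catalytic-sector subunit, read 1634, 1542 and 1634 with the vector label and 2134, 1916 and 1926 with the CCN5 label. It was higher on every array labelled CCN5, at 0.33 (SE 0.08), the highest member value. ATP6V1H, a regulatory subunit, read 7508, 6957 and 7172 against 7437, 7910 and 8130, at 0.11 (SE 0.08), with overlap as deposited. ATP6V0D1, of the membrane sector, read 11671, 11209 and 10348 against 8881, 11276 and 10003, at -0.15 (SE 0.11). The accessory protein ATP6AP1 read 12158, 11240 and 12657 against 10518, 13095 and 10708, at -0.09 (SE 0.11). Both sets of groups overlapped. The only ATP6V1A probe lay at percentile 0.163 of signal, with deposited values from -11.96 to 22.4, so it gave no usable level. With 19 further pump genes, 13 of 24 were lower and 11 higher, at a median of -0.05.

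GRN, which encodes progranulin, a secreted protein cut into granulins in lysosomes, read 22706, 22297 and 24985 with the vector label and 20784, 18596 and 16460 with the CCN5 label. The groups did not overlap, and the difference was -0.38 (SE 0.12). TFEB read 2972, 3521 and 3122 against 2903, 2678 and 3283 on its brightest probe, with overlap and a difference of -0.12 (SE 0.12). A TFEB probe of similar brightness gave -0.34 (SE 0.12) without overlap and a dim one -0.11, so all 3 had the same sign.

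**Figure D2:**
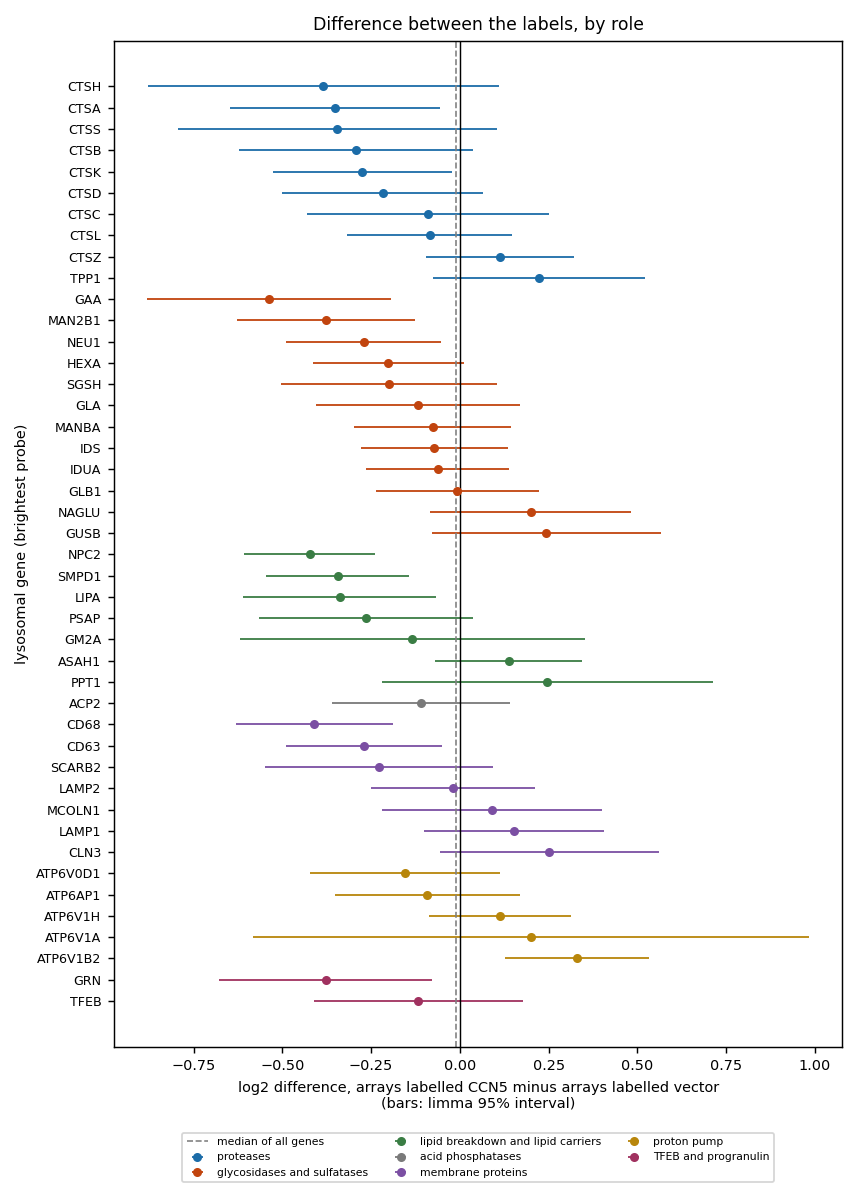
Log2 difference between arrays labelled CCN5 and arrays labelled vector for each of 44 lysosomal genes, by role, with limma's unadjusted 95% interval (3 arrays against 3). The points run from -0.54 for GAA to 0.33 for ATP6V1B2, and the dashed line marks the median of all genes, -0.01.

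Probes of one gene often disagreed. Of the 44 genes 11 had 2 or 3 probes, and for 7 of these the probes differed in sign. GUSB gave 0.24 and -0.22, HEXA -0.20 and 0.14, TPP1 0.22 and -0.15, IDS -0.07, -0.29 and 0.18, and CTSC -0.09, 0.17 and 0.26. These probes all lay above the 50th percentile of signal. For LAMP2 the probes gave -0.02, -0.08 and 0.29, of which only the first was above that percentile. CTSB, NPC2, TFEB and GM2A kept a negative sign on all their probes. Where the probes lie within the transcripts was not given, so isoforms were not tested. Averaging all probes of a gene left 30 of 44 members lower, with a median of -0.11.

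**Figure D3:**
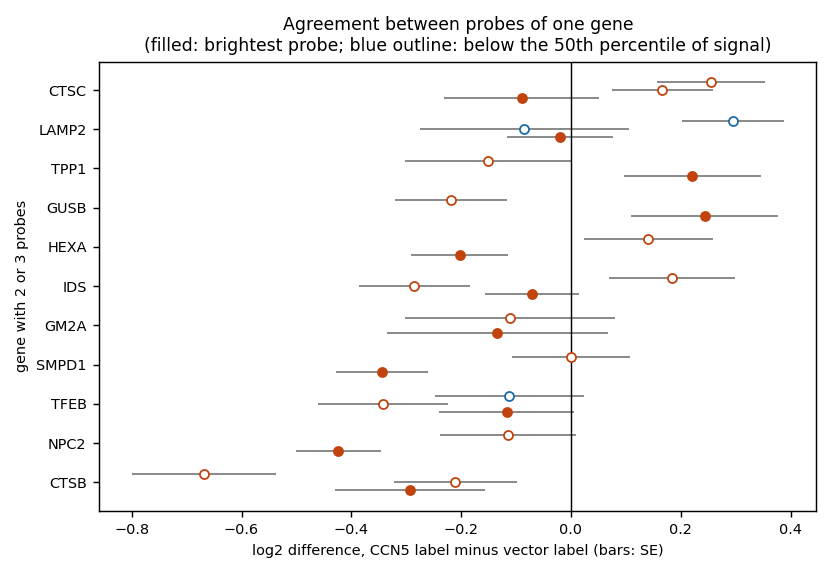
Log2 difference with its SE for every probe of the 11 lysosomal genes that have 2 or 3 probes; filled points are the brightest probe and blue outlines mark probes below the 50th percentile of signal. Points of GUSB, HEXA, TPP1, IDS and CTSC lie on both sides of 0, and those of CTSB all lie below it.

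A few members passed the threshold under other settings of the fit. Tested without the dimmest 50% of probes, 4 members were lower at limma's adjusted p under 0.05 (background 4.23% of 10560 genes), namely NPC2 (0.0223), CD68 (0.0361), SMPD1 (0.0430) and GAA (0.0464), and ATP6V1B2 was higher (0.0475, background 3.0%). An intensity-dependent, robust variance called NPC2 (0.0225) and CD68 (0.0498) lower (background 1.39%) and 0 members higher (background 0.723%), and log2(value + 50) called NPC2 alone (0.0471), lower, against a background of 0.953% lower and 0.314% higher. The CTSB probe at -0.67 also passed in the first of these settings (0.0237) and the second (0.0326). Without the dimmest 25% of probes 0 of 42 members passed (background 0.829% lower and 0.16% higher), and leaving out CCN5 replicate 3 gave 0 members (background 0.00524% lower). These adjusted p-values come from the contrast that was in view when the list was made. Under median centring the median over the members was -0.07, against 0.06 over all genes, and 29 of 44 were lower.

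Other genes of the lysosome, on lists of the same roles, were measured for 98 of 108 entries. Of these 56 were lower and 42 higher, with a median of -0.06, and 0 passed limma's test over all probes (lowest adjusted p 0.098). In 30 of them the CCN5 group lay wholly below the vector group and in 10 wholly above, which is 30.6% and 10.2% of them, against 16.0% and 12.0% of all genes. Above the 50th percentile of signal the shares were 31.6% and 13.2% of 76 such genes, against 19.3% and 16.2% of all genes above it. Among 12 further glycosidases, sulfatases and nucleases 10 were lower, with a median of -0.21, and among 10 further proteases 6 were lower, with a median of -0.11. Of the 5 further lipid genes 2 were lower and 3 higher, with a median of 0.05. In 2 of the 5 the CCN5 group lay wholly below the vector group and in 0 wholly above. GALC, which degrades galactosylceramide, stood at -0.64 (SE 0.18), the arylsulfatase ARSA at -0.43 (SE 0.13) and the fucosidase FUCA1 at -0.41 (SE 0.13). Of the proteases CTSO was at -0.63 (SE 0.14), SCPEP1 at -0.31 (SE 0.09) and DPP7 at 0.16 (SE 0.08). CTSO, at percentile 50.1 of signal, had limma's adjusted p at 0.0318 without the dimmest 50% of probes. By brightest probe, 1 of 76 other lysosomal genes was called lower in that setting and 0 higher (background 4.23% and 3.0% of genes).

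Among 24 further membrane proteins and transporters 15 were lower. LAPTM5, a lysosomal membrane protein of blood cells, read 608, 765 and 774 with the vector label and 473, 306 and 335 with the CCN5 label. Its groups were apart, at -0.92 (SE 0.13), and its probe lay at percentile 48.9 of signal. LAPTM5 passed limma's adjusted threshold without the dimmest 25% of probes (0.0371), with the trended, robust variance (0.0220) and with log2(value + 50) (0.0344). By brightest probe it was the 1 call among 92, 98 and 98 other lysosomal genes in these settings. The background was 0.829%, 1.39% and 0.953% of genes called lower. SLC11A1, a metal transporter of phagocytes, was at -0.43 (SE 0.10), and SPNS1, a lysosomal lipid transporter, at 0.32 (SE 0.10). Leukocyte markers stood beside these as follows: 5 of 7 were lower, 6 of 7 lay below the 50th percentile of signal, PTPRC at 15.1, and their summed intensity was 3253 to 3563 with the vector label and 2472 to 3772 with the CCN5 label. Their part in the value of LAPTM5 was not tested. NPC1, the cholesterol exporter that takes over from NPC2, stood at -0.20 (SE 0.10), PLD3 at -0.23 (SE 0.10) and PLBD2 at 0.22 (SE 0.14).

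Genes for the sorting of enzymes and for nutrient sensing stood on both sides of 0. Of 10 sorting genes 5 were lower and 5 higher, with GNPTG, a subunit of the enzyme that makes the mannose 6-phosphate tag, at -0.38 (SE 0.11), the adaptor GGA3 at 0.36 (SE 0.15) and CLN6 at 0.42 (SE 0.14). Of 18 TFEB relatives and mTORC1 genes 7 were lower and 11 higher. The Ragulator subunits LAMTOR3 and LAMTOR4 stood at -0.25 and -0.24 (SE 0.09 each) and the GTPase RRAGA at -0.22 (SE 0.09), all 3 without overlap, while a second LAMTOR3 probe gave 0.10. Of the further pump genes ATP6V0D2 (-0.61, SE 0.17), ATP6V1E2 (-0.41, SE 0.12) and ATP6V1B1 (-0.33, SE 0.10) were lower. ATP6V0D2 lay at percentile 10.7 of signal, and its groups overlapped as deposited. Probes that were not the brightest of their gene also passed limma's adjusted threshold without the dimmest 50% of probes. An ATP6V0C probe was higher (0.45, adjusted p 0.0369) and a probe of the sorting gene CLN8 lower (-0.42, adjusted p 0.0445).

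**Figure D4:**
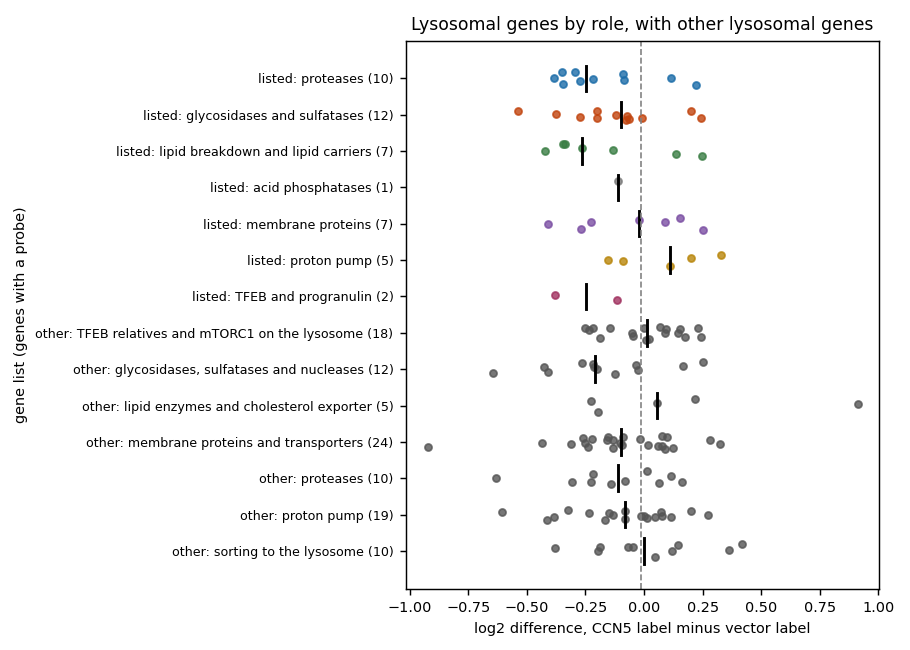
Log2 difference between the labels for the listed lysosomal genes by role (coloured points) and for other lysosomal genes (grey points), 1 point per gene by its brightest probe; black bars are medians and the dashed line is the median of all genes. Medians lie at -0.25 for the listed proteases, -0.26 for lipid genes, 0.11 for the listed proton pump genes and -0.21 for the other glycosidases, sulfatases and nucleases. The listed pump median includes ATP6V1A, whose probe gave no usable level.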

How the data were processed

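Per the labels' protocols, total RNA was copied from a T7 oligo(dT) primer and amplified as Cy3-labelled antisense RNA. The authors deposited 1 linear intensity per probe and array; their scanner, background correction and normalization are not stated in those sources. On each array all values (100.0%, within 0.05 of a step) were whole multiples of 1 step of 0.929 to 1.10, as a scaling by 1 factor per array gives. Array medians were 504 to 600, and 5.35% of values on vector replicate 1 and 0.0% to 0.0814% on the other arrays lay below 1.

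Values under 1 were set to 1, log2 transformed and quantile normalized, and all 28264 probes were fitted with limma 3.58.1 (R 4.3.3; lmFit, eBayes, two-sided, Benjamini-Hochberg over all probes, threshold 0.05), CCN5 label minus vector label, without covariates. SE are limma's moderated errors. The number of arrays limits precision. Names came from the platform annotation (25893 probes), updated through Entrez identifiers. Members, role groups, other lists and the naming rule (up to 4 members per role group and 3 genes per other list, by smallest p, with further members for completeness) were chosen with earlier results of these data known. Alternatives are listed in the closing section. On simulated arrays with changes placed in the brighter 50% of probes, limma over 28264 probes recovered 73.0% of log2 changes of 1 and 99.0% of 2, with 12 false calls. Changes as small as those of the members (-0.54 to 0.33) were not simulated, so these rates do not apply to them. Figures were drawn with matplotlib 3.10.9.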

Additional observations from a re-analysis of the deposited data

How the results depend on the processing

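All settings here were planned. Over all probes limma called 0, and 305 (80 higher, 225 lower) with log2(value + 50), 184 (33 and 151) without the dimmest 25% of probes, 999 (432 and 567) without the dimmest 50% and 524 (188 and 336) with a trended, robust variance; leaving out 1 array gave 0 to 1. At an unadjusted p under 0.05, 1638 genes were higher and 2133 lower. Lysosomal members called numbered 0, and 1 with log2(value + 50), 5 without the dimmest 50% and 2 with the trended, robust variance; the deposited scale, median centring, array weights, the mean of a gene's probes, the lowest 25% left out, the replicate block and leaving out each array in turn gave 0 members. The stricter filter tested fewer probes, with a prior df of 4.33 in place of 2.46; other causes were not tested. The median over the members was -0.12, moved to -0.073 under median centring, where the median of all genes was 0.06, and lay between -0.17 and -0.10 when 1 array was left out. Of 44 members 39 kept their sign in all of these settings. Turned above 0 were CTSC (0.0012), GLB1 (0.027) and LAMP2 (0.018) under median centring, GLB1 with array weights (0.0085), and CTSC (0.11) and LAMP2 (0.064) by the mean of their probes. With 1 array left out, GLB1 ranged from -0.041 to 0.057, LAMP2 from -0.07 to 0.026, GM2A from -0.29 to 0.090 (above 0 without CCN5 replicate 2) and ATP6V1A from -0.090 to 0.69. Other ranges without 1 array were -0.20 to -0.0086 for CTSC, 0.07 to 0.15 for CTSZ, -0.11 to -0.04 for IDS, -0.09 to -0.03 for IDUA, -0.13 to -0.04 for MANBA, 0.13 to 0.28 for NAGLU, 0.14 to 0.35 for GUSB, -0.31 to -0.12 for SGSH, 0.09 to 0.23 for LAMP1, 0.0065 to 0.22 for MCOLN1, -0.35 to -0.16 for SCARB2, -0.23 to -0.08 for ATP6V0D1 and -0.17 to -0.05 for ATP6AP1. The replicate numbers are not shown to pair the arrays: same-number deviations correlated at -0.08, 0.16 and -0.03, and with the replicate block limma called 0 probes and the median stayed at -0.12. Probe brightness limits the dim members CTSK, CTSH, CTSS and ATP6V1A, since no detection level was used.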
